A study of Mus musculus with 745 samples.

Results

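The cells described here are brain endothelial cells chosen for transcripts of small arteries. They were the 120 cells with the highest arteriolar score, which is 17.1% of the kept cells and 16.1% of all cells in the series. The score was the mean log2(CPM + 1) of Bmx, Efnb2, Gkn3, Sema3g and Vegfc minus the mean of the large-artery genes Fbln5, Cytl1, Mgp, Clu, Pi16 and Fhl1, with CPM the counts of a cell scaled to a common total. The 42 cells at or above 500 CPM of Vtn, a pericyte transcript, had been dropped first. The members were thus chosen by the measured levels of these 11 genes, which are given as a description and were not tested.

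The series concerns how proteins of the blood pass into the brain. Each of its samples was a single primary brain endothelial cell of a young mouse (3 months), freed from brain tissue with an enzymatic neural dissociation kit and collected by FACS. The labels used here give no strain, sex, genotype or treatment, and every cell carries the same description, so vessel segments were compared and no conditions. The cell titles name 3 sets, Young1, Young2 and AY_Y3, and what a set stands for (an animal, several animals or a plate) is not stated. The p-values therefore measure only how differences vary over these sets, which may be technical.

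Arterioles are the small resistance vessels that carry blood from the brain's surface arteries to its capillaries. Their endothelium shares an arterial program, maintained by Notch signalling and Sox17, with the endothelium of large arteries, and leads without a sharp border into capillary endothelium rich in transporters. Bmx, a non-receptor tyrosine kinase, and Efnb2, the ligand ephrin-B2, are classical arterial markers. Gkn3 encodes a gastrokine, Sema3g a secreted semaphorin and Vegfc a growth factor of the VEGF family.

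Members came from every set. Young1 gave 26 members (12.3% of its kept cells, exact 95% interval 8.21 to 17.5), Young2 58 (23.8%, 18.6 to 29.6) and AY_Y3 36 (14.5%, 10.4 to 19.5). The share was highest in Young2, whose interval overlaps that of AY_Y3 and not that of Young1, and these intervals cover counting error only. Read counts per member ran from 57651 to 2176270, with a median of 730010 against 585271 in the other kept cells. Members had a median of 1694.5 genes with a count once each cell was thinned to 50000 counts, and the other kept cells 1679. General endothelial genes summed to 30706 to 34509 CPM in members and 26761 to 30755 CPM in the other kept cells.

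The score fell smoothly through its limit. It was 6.08 in the first-ranked cell and 1.96 at rank 60. The last member, at rank 120, scored 1.173, and the first cell outside scored 1.169. Of the kept cells 25.7% scored above 0, 55.9% exactly 0 and 18.3% below 0.

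The members differed widely in how many of the 5 arteriolar genes they carried. Efnb2 had a count in 72 of the 120 members, Sema3g in 68, Bmx in 67, Vegfc in 40 and Gkn3 in 30. The ephrin gene Efnb2 stood at 265.7, 177.4 and 184.4 CPM in Young1, Young2 and AY_Y3, the order kept for all values here, and at 0.775, 6.53 and 0.155 CPM in the remaining cells, the kept cells left after members, large-artery cells and the cells next in rank. Vegfc stood at 65.9, 312.2 and 210.96 CPM in members, with Young1 far below the others. A single arteriolar gene carried 46 members (38.3%): Efnb2 alone in 23, Sema3g alone in 11, Bmx alone in 8 and Vegfc alone in 4. Gkn3 was never the only gene. At the other end 32 members carried 3 of the genes, 15 carried 4 and 7 carried all 5. The pair found together most often was Bmx with Sema3g, in 43 members.

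**Figure D1:**
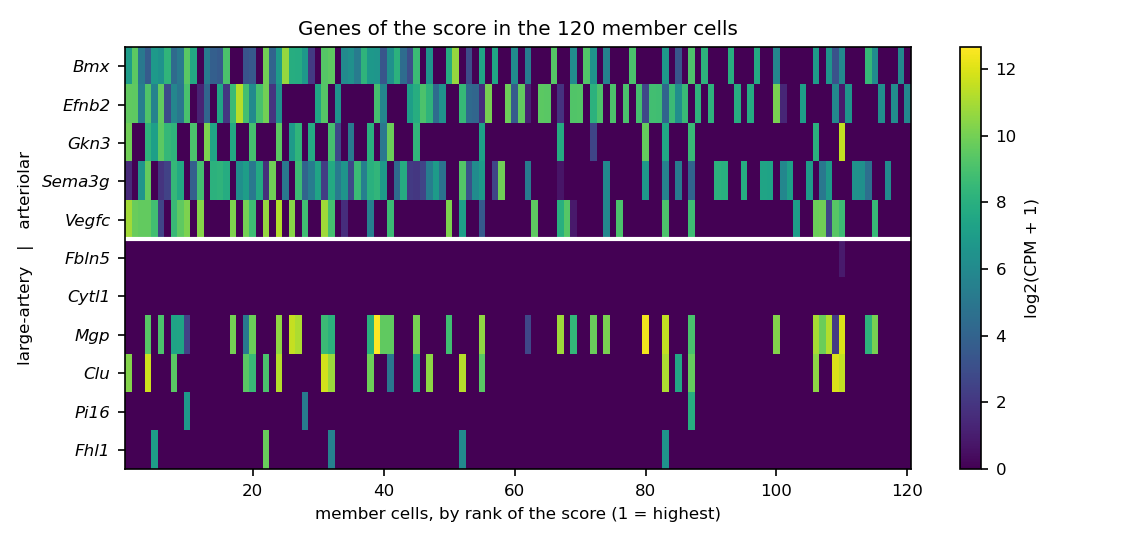
Level of the score genes in each of the 120 members as log2(CPM + 1), with 1 column per cell ordered by rank of the score (horizontal axis) and 1 row per gene, the 5 arteriolar genes above the white line and the 6 large-artery genes below it. Cells toward the right mostly carry a single arteriolar gene, and Mgp and Clu appear in 36 and 21 of the cells.

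The name arteriolar without large-artery markers held only in part. No large-artery score gene had a count in 77 members (64.2%), while 24 carried 1, 15 carried 2 and 4 carried 3 of them. Mgp, a matrix protein that restrains vascular calcification, had a count in 36 members, and Clu, the secreted chaperone clusterin, in 21. Mgp stood at 271.1, 390.9 and 559.9 CPM in members against 1632, 1789 and 3928 CPM in large-artery cells, the 60 kept cells outside the members with the highest mean of the 6 large-artery genes. Fbln5, an elastic fibre protein, had 1 of 120 members with a count, and Cytl1 had none. The large-artery class was not poor in arteriolar genes: Bmx had a count in 41 of its 60 cells and Vegfc in 38, so what set members apart from it by construction was the large-artery genes.

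Markers of other cell types were measured in the same sums. Smooth muscle markers (15 genes) summed to 166.7 to 296.5 CPM over the sets in members, 263.8 to 429.4 in the other kept cells and 289.4 to 1622 in large-artery cells. Of the 15 genes 8 had no count in members, Acta2, Tagln and Cnn1 among them. Summed over Acta2, Tagln, Myh11 and Cnn1, 1 of 120 members reached 100 CPM, against 5 of 60 large-artery cells. Pericyte markers summed to 35 to 416.8 CPM in members and 337.2 to 461.9 in the other kept cells. Of 13, 5 had no count in members, Pdgfrb among them. Fibroblast markers summed to 0.0509 to 2.12 CPM in members and 5.02 to 23.9 in the other kept cells. Of 8, 4 had no count in members, Dcn among them. Astrocyte markers summed to 56.4 to 189.7 CPM in members, below the 225.1 to 443.9 CPM of the other kept cells. Of 12, 3 had no count in members, Aqp4 among them. Of 6 tested, 5 were lower in 3 of 3 sets (median log2 fold change -3.22, 0 called), beside 19.1% of all genes tested. Oligodendrocyte markers were the highest of these, at 1314 to 2273 CPM in members and 1232 to 2701 in the other kept cells. Of these 12 markers 5 had no count in members, with Mog one of the 5. Large-artery cells held less of them, at 845, 552.1 and 1221 CPM against 1572, 1314 and 2273 in members, and Mal, a myelin and lymphocyte protein of this list, was among the genes called higher against large-artery cells (1.18 ± 0.17, edgeR adjusted p = 0.0163). Their part in the results was not tested.

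The first comparison set members against all other kept cells, on counts summed per set and class with the set as a block and the score genes left out. No gene passed. Among 9244 genes edgeR's quasi-likelihood test called 0 (0%) at an adjusted p of 0.05. At an unadjusted p of 0.05 it had 4.95% of the genes, 2.56% higher and 2.39% lower in members. The share at the unadjusted limit was close to that limit itself. DESeq2 on the same sums called 6.77% of the genes, and limma on log2 of the mean CPM called 16 genes (0.189%). The other kept cells hold large-artery cells too. All fold changes against the other kept cells below are values without a call under edgeR, on the log2 scale of the fit ± SE, where the median gene stood at -0.11.

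The genes nearest to a call on the higher side, chosen after their values were seen as the 8 with the smallest unadjusted p, included a transcriptional repressor, a guidance receptor and a secreted peptide. Hey1, a transcriptional repressor induced by Notch, stood at 416.01, 317.5 and 277.3 CPM in members and 126.3, 89.7 and 99.8 CPM in the other kept cells (log2 fold change 1.76 ± 0.20, edgeR adjusted p = 0.323). Every member set lay above every other set, which held for 4.48% of all genes tested, and every member set below for 9.56%. Only genes higher in 3 of 3 sets, 9.87% of all genes tested, could be chosen here. The choice itself thus favoured sets without overlap, on the lower side as well. Slc26a10, of the SLC26 anion exchanger family, stood at 468.1, 263.7 and 445.98 CPM against 144.2, 66.9 and 86.4 CPM (2.11 ± 0.22, edgeR adjusted p = 0.323), again without overlap. Unc5b, a netrin receptor that restrains vessel branching, stood at 340.6, 268.97 and 281.9 CPM against 124.7, 73.7 and 42 CPM (2.11 ± 0.32, edgeR adjusted p = 0.576). It had a count in 54.2% of members and 16.3% of the other kept cells, and its sets did not overlap either.

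Cdkn1c, an inhibitor of cyclin-dependent kinases, stood at 435.5, 344.6 and 154.5 CPM against 114.5, 101.3 and 50 CPM (1.86 ± 0.21). Edn3, the vasoactive peptide endothelin-3, stood at 291.4, 390.4 and 548.7 CPM against 152.1, 92.4 and 148.9 CPM (1.73 ± 0.28). Both had their member sets above all sets of the other cells. Prss23, a secreted serine protease, stood at 1117, 1002 and 856 CPM against 560.5, 495.5 and 441.3 CPM (1.08 ± 0.12) and Rtfdc1 at 266.1, 183.4 and 243.8 CPM against 98.6, 72.1 and 102.5 CPM (1.43 ± 0.22). Tm4sf1, a tetraspanin-like surface protein of endothelium, stood at 1842, 2170 and 2381 CPM against 1184, 1056 and 1563 CPM (0.85 ± 0.12). The edgeR adjusted p of these 5 genes lay between 0.323 and 0.583.

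On the lower side the same choice gave carriers, enzymes and secreted proteins. Rnase4, a secreted ribonuclease, had the smallest p of all genes and stood at 21.5, 31.4 and 18.7 CPM in members against 280.4, 333.6 and 213.7 CPM (-3.45 ± 0.26, edgeR adjusted p = 0.209). It had a count in 7.5% of members and 35.8% of the other kept cells. Slc38a5, a carrier of glutamine and other neutral amino acids, stood at 130.7, 203.01 and 254.7 CPM against 693.4, 837 and 805 CPM (-1.95 ± 0.20), and Slc16a1, the monocarboxylate carrier MCT1, at 76.4, 119.4 and 177.1 CPM against 297.9, 519.7 and 437.7 CPM (-1.71 ± 0.24). Both carriers are textbook genes of the blood-brain barrier, and their member sets lay below all other sets.

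Car4, a carbonic anhydrase on the surface of capillary endothelium, stood at 932, 461.9 and 724.1 CPM against 2124, 2167 and 1943 CPM (-1.52 ± 0.23). Vwf, the haemostatic von Willebrand factor, which is rich in veins, stood at 50.5, 127.4 and 63.5 CPM against 193.8, 383.3 and 300.05 CPM (-1.83 ± 0.24). Net1, an exchange factor for RhoA, stood at 49.3, 127.8 and 93.3 CPM against 240.7, 383.5 and 329.8 CPM (-1.81 ± 0.24). The secreted factor Ndnf (-2.25 ± 0.32) and Ctla2a (-1.42 ± 0.22) completed the 8. No edgeR adjusted p among these genes was below 0.209.

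By gene list, arterial genes outside the score lay toward members. Of 29 other arterial genes, 26 passed the filter on low counts. They had a median log2 fold change of 0.56, and 18 were higher in 3 of 3 sets, which held for 9.87% of all genes tested. At the unadjusted limit 14 were higher and 1 was lower. The summed level of the list was 14147, 15234 and 15560 CPM in members and 10799, 9200 and 10685 CPM in the other kept cells. Venous genes had a median of -1.83 over 17 genes, of which 11 were lower in 3 of 3 sets against 19.1% of all genes, and capillary genes a median of -0.43 over 18, of which 10 were lower in 3 of 3 sets. Solute carriers of the blood-brain barrier had a median of -0.31 over 27 genes, 13 of them lower in 3 of 3 sets.

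Among arterial genes fixed for naming, Alpl, the alkaline phosphatase of cerebral arterioles, stood at 722.02, 1025 and 917 CPM against 489.5, 387.8 and 536.2 CPM (1.002 ± 0.20, edgeR adjusted p = 0.638). Its member sets lay above the other sets. Stmn2, a microtubule regulator, stood at 205.5, 189.4 and 135.7 CPM against 91.3, 80.2 and 113.9 CPM (0.98 ± 0.31). Sox17, a transcription factor of arterial identity, stood at 652.95, 418.2 and 479.9 CPM against 412.8, 281.02 and 408.5 CPM (0.58 ± 0.17), also without overlap. Slc6a6, the taurine carrier, had a fold change of 0.51 ± 0.14 and the vasoconstrictor gene Edn1 of 0.55 ± 0.21. The edgeR adjusted p of Stmn2, Sox17, Slc6a6 and Edn1 lay between 0.878 and 0.968.

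Notch genes were mixed. The list of 19 tested ligands, receptors and targets had a median of -0.07. In 3 of 3 sets 7 genes (36.8%) were higher and 5 (26.3%) lower, beside 9.87% and 19.1% of all genes tested. The receptor gene Notch4 stood at 199.5, 162.9 and 132.7 CPM against 81.3, 91.3 and 93.9 CPM (0.97 ± 0.29), without overlap. Of the ligand genes, Jag1 had a fold change of 0.24 ± 0.21, with 0.034 to 1.83 over the alternatives, and Dll4 of -0.24 ± 0.38, with -0.78 to 0.49. The highest value of both came with members chosen by the 5 arteriolar genes alone. The connexin gene Gja4 had a fold change of 0.25 ± 0.58, and Gja5, another arterial connexin, had too few counts to be tested. Transcription factors of arteriovenous identity and flow (36 tested, median -0.06) included Prdm16 (1.68 ± 0.28), Mecom (0.99 ± 0.32) and Sox18 (0.52 ± 0.14). These were among the 6 of 36 (16.7%) higher in 3 of 3 sets, beside 9.87% of all genes tested. Lower in 3 of 3 sets were 7 of 36 (19.4%), close to the 19.1% of all genes. The venous regulator Nr2f2 had a fold change of -2.12 ± 1.83 and stood at 66, 0.808 and 8.19 CPM in members, with Young1 far above the other sets.

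Several venous and barrier genes had negative fold changes, none of them called by edgeR. Lrg1, a secreted glycoprotein of venous endothelium, had no count in any member, which allows a share of up to 2.5% of cells with a count (counting error only), and had one in 7.2% of the other kept cells. Vcam1, an adhesion molecule for leukocytes, stood at 63.4, 16.4 and 181.2 CPM against 40.7, 231.6 and 198.2 CPM (-0.83 ± 0.99), with overlapping sets. The iron exporter Slc40a1 (-1.26 ± 0.21) and the glutamine carrier Slc38a3 (-1.25 ± 0.35) also had negative values. So did the transferrin receptor Tfrc (-1.07 ± 0.48, edgeR adjusted p = 0.968).

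Other barrier genes had fold changes nearer to 0. Slc2a1, the glucose carrier GLUT1, stood at 9597, 9451 and 12751 CPM against 8137, 8720 and 10635 CPM (0.30 ± 0.07). Cldn5, the main tight junction claudin, had a fold change of 0.05 ± 0.09, the efflux pumps Abcb1a and Abcg2 of 0.06 ± 0.15 and -0.08 ± 0.19, and the lipid carrier Mfsd2a of 0.20 ± 0.25. Mfsd2a and Abcb1a changed sign with the choice of members. Over the alternatives Mfsd2a ran from -1.15 to 0.50, Abcb1a from -0.61 to 0.19 and Abcg2 from -0.95 to 0.17, each lowest value coming with the score of the 5 arteriolar genes alone. The caveolar gene Cav1 had a fold change of 0.07 ± 0.13 and the nitric oxide synthase gene Nos3 of 0.15 ± 0.23.

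The other kept cells hold arterial cells as well, so members were also set against the remaining cells, in a fit of 12 sums. This comparison was added after the first had given no call. A planned fit of 6 sums on the same cells called 0 of 9058 genes, with 5.83% below an unadjusted p of 0.05, so the calls that follow rest on the fit of 12 sums. There edgeR called 3 of 8981 genes (0.0334%), all higher in members, and 3.76% lay below an unadjusted p of 0.05. Cd9, a tetraspanin, stood at 655.6, 567.7 and 504.4 CPM in members against 255.2, 175.998 and 201.2 CPM in remaining cells (1.54 ± 0.16, edgeR adjusted p = 0.0185), and Tm4sf1 at 1842, 2170 and 2381 against 903, 768 and 947 CPM (1.36 ± 0.15, edgeR adjusted p = 0.0185). Egfl8, an EGF-like domain protein, stood at 122.5, 55.5 and 159.04 CPM against 11.3, 2.12 and 7.43 CPM (4.19 ± 0.47, edgeR adjusted p = 0.0185). All 3 had yet higher levels in large-artery cells, with Cd9 at 2141, 1570 and 1542 CPM there.

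**Figure D2:**
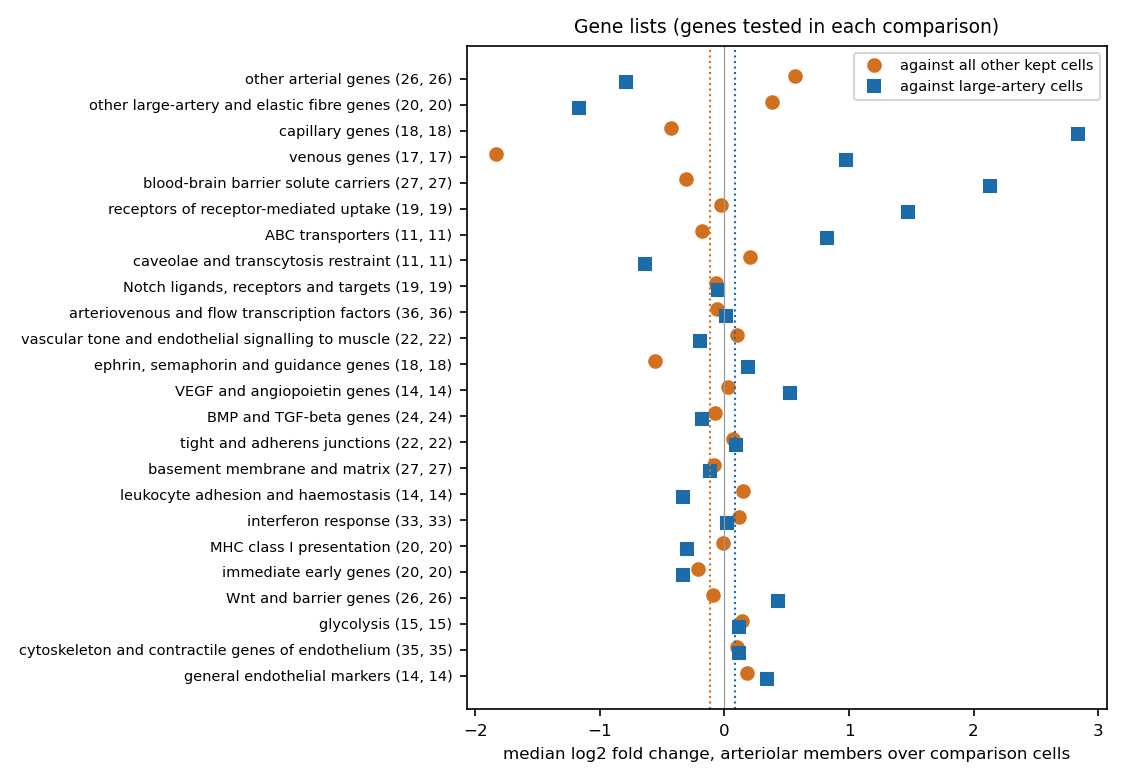
Median log2 fold change (horizontal axis) of each gene list with at least 10 tested genes, for members against all other kept cells (circles) and against large-artery cells (squares), with the median of all genes tested as dotted lines in the same colours. Other arterial genes lie at 0.56 against all other kept cells and at -0.79 against large-artery cells, and capillary genes at -0.43 and 2.84.

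Against large-artery cells edgeR called more genes than against all other kept cells. The counts of calls do not show which difference was clearer, because the fits used unlike numbers of sums. The score of the members also counted against the large-artery genes, while large-artery cells were chosen for high levels of them. Differences in genes that vary with these were thus favoured by the choice of cells. Members had higher transcripts of capillaries, of solute carriers and of uptake receptors than large-artery cells. Lower in members were the arterial genes Jag1 and Ptprr and the matrix gene Timp3. edgeR called 63 of 8981 genes (0.701%), 52 higher (0.579%) and 11 lower (0.122%) in members, and 9.78% lay below an unadjusted p of 0.05. DESeq2 called 7.54%, among them all 63, near the 6.77% it called against all other kept cells. With only 2 of the sets the calls dropped to 9 or 10, of which 8 were among the 63 each time, and the direction of every one of the 63 that could be tested was kept.

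Capillary genes made up the main group. Of 18 tested, 10 were called higher in members and none lower, where 0.579% of all genes tested were called higher. The median log2 fold change was 2.84 against 0.08 over all genes. Itm2a, a membrane protein of brain capillaries, stood at 8721, 7423 and 7891 CPM in members and 1158, 1251 and 932 CPM in large-artery cells (2.87 ± 0.11, edgeR adjusted p = 2.33e-06). It was the only one of the named genes called under every alternative. Pglyrp1, a peptidoglycan recognition protein, stood at 1158, 1003 and 1326 CPM against 104.1, 71 and 107.4 CPM (3.65 ± 0.16, edgeR adjusted p = 5.19e-06). Car4 stood at 12.5, 36.9 and 22.7 CPM in large-artery cells (4.92 ± 0.43). The lipid carrier Mfsd2a, which restrains transcytosis, stood at 594.5, 354.7 and 990.4 CPM against 26.9, 29.3 and 101.6 CPM (3.71 ± 0.45, edgeR adjusted p = 0.00743). The VEGF receptor Kdr (2.81 ± 0.43), the chemokine Cxcl12 (2.42 ± 0.33) and the proteoglycan Spock2 (1.61 ± 0.21) were also higher.

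Barrier solute carriers overlapped with the capillary list, which also holds Slc22a8, Slc3a2 and Slc38a3. Of 27 tested, 5 were called higher and none lower (median 2.13), where 0.579% of all genes tested were called higher. Slc22a8, the organic anion carrier OAT3, stood at 623.2, 350.7 and 885 CPM against 40.8, 4.03 and 23 CPM (4.94 ± 0.61, edgeR adjusted p = 0.00791). Slc3a2, which pairs with light chains to form amino acid exchangers, stood at 1622, 1374 and 1580 CPM against 262.6, 297.7 and 436.3 CPM (2.24 ± 0.17). Member sets lay above all large-artery sets for both, as for 8.26% of all genes tested. The cationic amino acid carrier Slc7a1 (4.10 ± 0.63), Slc38a3 (2.76 ± 0.34) and the organic anion carrier Slco1a4 (2.44 ± 0.20) were the others. Of the ABC transporters, Abcg2, the efflux pump BCRP, was higher (2.17 ± 0.24, edgeR adjusted p = 0.0037), while Abcb1a, P-glycoprotein, had a fold change of 1.63 ± 0.31 with an edgeR adjusted p of 0.0527.

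Receptors and surface proteins of uptake from the blood, the subject of the series, included 4 of 19 called higher and none called lower. Of all genes tested 0.579% were called higher. Bsg, basigin, stood at 18100, 16702 and 17898 CPM against 5845, 5115 and 7534 CPM (1.53 ± 0.12, edgeR adjusted p = 0.000449). Igf1r, the IGF-1 receptor, stood at 791, 563.9 and 940.5 CPM against 78.1, 148.4 and 217.1 CPM (2.45 ± 0.33). Fcgrt, the neonatal Fc receptor that recycles immunoglobulin and albumin, had a fold change of 1.47 ± 0.16, and Scarb1, a lipoprotein receptor, of 1.59 ± 0.23. The transferrin receptor Tfrc stood at 56.9, 88.1 and 251.5 CPM against 11.1, 46.5 and 23.4 CPM (2.26 ± 0.57, edgeR adjusted p = 0.149) and did not pass.

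Some called genes had no count in any of the 60 large-artery cells, which allows a share of up to 5% of cells with a count. Ddc, the aromatic amino acid decarboxylase, stood at 245.6, 96.8 and 233.2 CPM in members and had a count in 30.8% of them (edgeR adjusted p = 0.000449). Pde4b, a cyclic AMP phosphodiesterase, had a count in 10% of members and Adm, the vasodilator peptide adrenomedullin, in 7.5%. Without molecular identifiers reads are not independent molecules, so these limits cover counting error only and no fold is given. Pde4b and Adm lost their call under 5 of 10 alternatives each.

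The 11 lower genes held the Notch ligand Jag1, at 236.6, 217.3 and 147.1 CPM in members against 640.8, 835 and 523.3 CPM in large-artery cells (-1.74 ± 0.28, edgeR adjusted p = 0.0283). Cd9 stood at 655.6, 567.7 and 504.4 CPM against 2141, 1570 and 1542 CPM (-1.58 ± 0.16, edgeR adjusted p = 0.00288). Timp3, an inhibitor of matrix metalloproteinases, stood at 1074, 2054 and 1837 CPM against 2427, 4440 and 4667 CPM (-1.20 ± 0.22). In the basement membrane and matrix list Timp3 was the 1 gene called lower of 27 tested, while Sparc (1.21 ± 0.11) and Vwa1 (2.70 ± 0.47) were called higher. Of all genes tested 0.122% were called lower and 0.579% higher. No set of members reached the lowest large-artery set for Jag1, Cd9 or Timp3, as for 5.82% of all genes tested. Prune2 (-2.95 ± 0.42), the actin-binding substrate Marcks (-3.63 ± 0.51), the surface lectin Clec14a (-1.90 ± 0.29), the tumour necrosis factor receptor Tnfrsf1a (-1.80 ± 0.29), the caveolar gene Ehd2 (-1.28 ± 0.22) and the phosphatase gene Ptprr (-1.29 ± 0.24) were also lower. The list of other arterial genes had a median of -0.79 over 26 genes, with 0 called higher and 2 called lower, Jag1 and Ptprr, beside the same 0.122% of all genes.

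**Figure D3:**
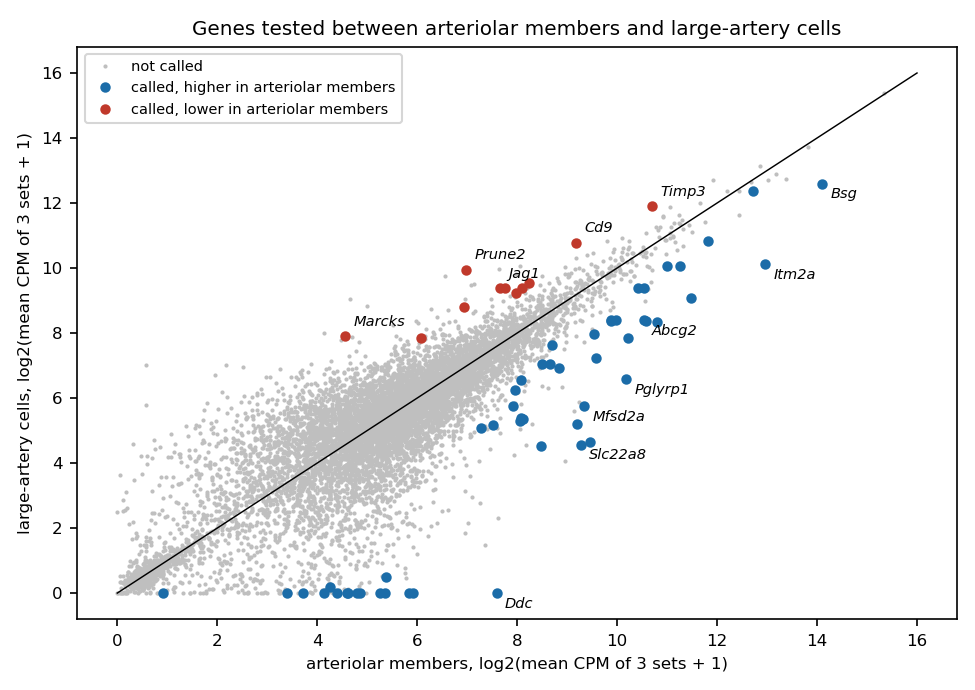
Mean level of each tested gene over 3 sets in members (horizontal axis) and in large-artery cells (vertical axis), both as log2(CPM + 1), with the 52 genes called higher in members in blue, the 11 called lower in red and the line of equal level in black. Itm2a and Pglyrp1 lie far below the line, and the blue points along the bottom, such as Ddc, have no or almost no count in large-artery cells.

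Without the cells at 100 CPM or more summed over Acta2, Tagln, Myh11 and Cnn1, 43 genes were called, 42 of them among the 63. Alpl and Stmn2 illustrate the order of levels across classes: Alpl stood at 334.3, 234.2 and 217.4 CPM in remaining cells, 722.02, 1025 and 917 in members and 1906, 1694 and 1852 in large-artery cells, with no overlap between any of the 3. Stmn2 followed the same order, at 54.9, 28.3 and 31, then 205.5, 189.4 and 135.7, then 542.9, 546.3 and 488.1 CPM. Against large-artery cells the fold changes of Alpl (-1.02 ± 0.34, edgeR adjusted p = 0.304) and Stmn2 (-1.55 ± 0.50, edgeR adjusted p = 0.288) did not pass. Unc5b and Slc26a10 had another order, with large-artery cells at 170.4, 90.4 and 12.4 CPM and 58.6, 104.2 and 71.3 CPM, below the members in every set. Their fold changes over large-artery cells were 2.31 ± 0.71 (edgeR adjusted p = 0.274) and 2.25 ± 0.58 (edgeR adjusted p = 0.165), which did not pass.

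Members were also described by how many of the arteriolar genes they carried. The 46 members with 1 arteriolar gene and the 74 with 2 or more were compared as a description only, since the split uses score genes and was chosen after values were seen. In the order Young1, Young2 and AY_Y3 the first held 13, 17 and 16 cells and the second 13, 41 and 20. Large-artery score genes summed to 0 CPM in the first and to 803, 1177 and 1696 CPM in the second. The score leaves a member with 1 arteriolar gene little room for large-artery counts, so this difference follows largely from the rule. Median counts per cell were 766374 and 698716, and genes per cell at 50000 counts 1546.5 and 1848.5.

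Arterial genes were concentrated in members with 2 or more score genes. The 27 other arterial genes in the table summed to 19035, 18018 and 20559 CPM there and to 9254, 8838 and 10796 CPM in members with 1, beside 8885, 7248 and 7836 CPM in remaining cells. Alpl stood at 938, 1347 and 1534 CPM with 2 or more genes and at 505.8, 283.96 and 328.8 CPM with 1, and Stmn2 at 364.4, 253.5 and 277.1 and 46.5, 42.2 and 0.894 CPM. Jag1 stood at 397.03, 278.9 and 253.4 CPM and 76, 75.7 and 45.8 CPM. For all of these the sets did not overlap. The share of all genes without overlap was not computed for this split, here and below, so these genes are not shown to be unusual. Stmn2 and Jag1 in members with 1 gene lay near or below the level of the remaining cells.

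Capillary genes ran the other way. Car4 stood at 1746, 1045 and 1325 CPM in members with 1 gene and 118.9, 207.98 and 93.5 CPM in those with 2 or more. Itm2a stood at 10550, 11290 and 10855 CPM and 6895, 5739 and 4779 CPM, beside 10277, 10833 and 10228 CPM in remaining cells. The capillary list summed to 24479, 26410 and 30314 CPM with 1 gene and 14812, 14140 and 12261 CPM with 2 or more, against 3013, 3107 and 4060 CPM in large-artery cells. In remaining cells it summed to 26195, 27391 and 27764 CPM, so members with 1 gene were not set apart from these by capillary genes. The name arteriolar is therefore not borne out by this list for members with 1 gene. Members with 2 or more genes thus lay between large-artery and remaining cells in every set for this list and for the other arterial genes.

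In level, Slc26a10 did not follow either pattern. It stood at 563.6, 385.98 and 494.3 CPM in members with 1 gene and 372.6, 210.5 and 395.3 CPM in those with 2 or more, beside 64.6, 40 and 92.3 CPM in remaining cells, and every set of both lay above the remaining cells. The share of cells with a count of Slc26a10 ran against its level, at 34.8% with 1 gene and 54.1% with 2 or more. Prdm16 stood at 151.01, 702.3 and 381.5 CPM and 210.4, 70.6 and 600.2 CPM, with overlapping sets. Hey1 stood at 185.3, 118.1 and 150.1 CPM with 1 gene and at 646.4, 404.2 and 410.9 CPM with 2 or more. When members with 2 or more genes alone were set against all other kept cells, edgeR again called 0 genes, with 5.33% below an unadjusted p of 0.05.

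**Figure D4:**
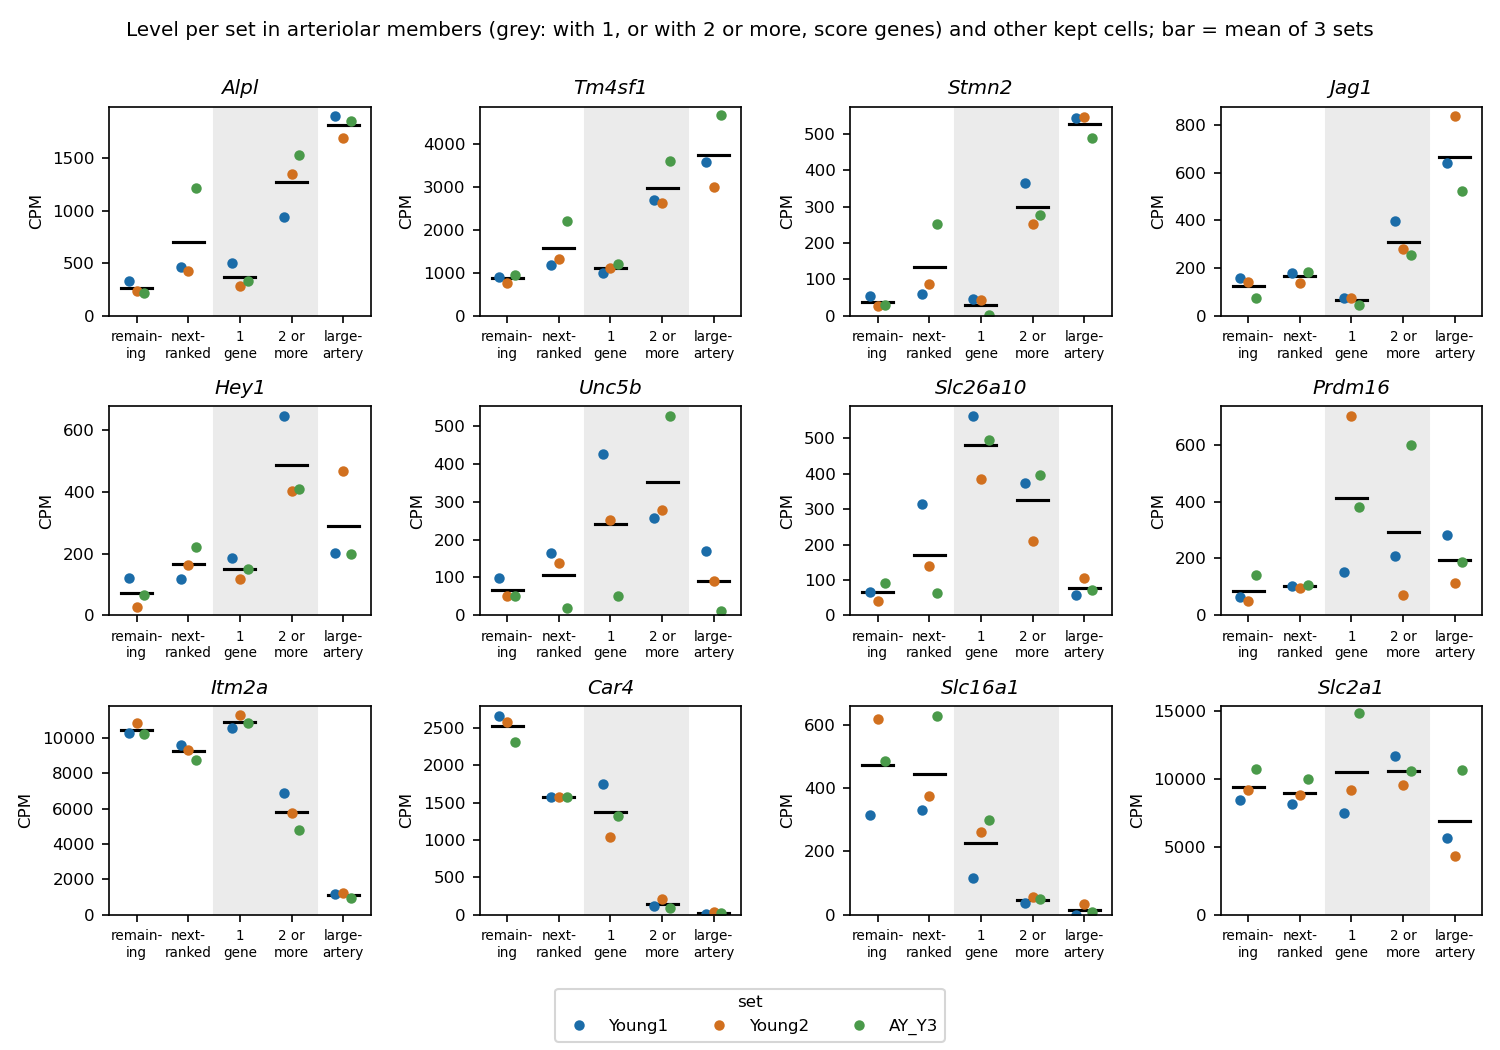
Level of 12 genes in CPM (vertical axes, from 0) in remaining cells, next-ranked cells, members with 1 and with 2 or more arteriolar score genes (grey) and large-artery cells, with 1 point per set and a bar at the mean of 3 sets. Alpl, Stmn2 and Jag1 climb from members with 1 gene to large-artery cells, Car4 and Itm2a descend, and Slc26a10 is highest in the members.

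Members were last set against the next-ranked cells, which follow them in the score up to rank 240 without the large-artery cells. edgeR called 0 of 8981 genes (0%), with 3.9% below an unadjusted p of 0.05, and DESeq2 called 91 (1.01%). Of the next-ranked cells 57 scored above 0. The other 59 had a score of exactly 0, tied with many cells, and entered by their order in the table. With only those above 0, a choice made after seeing the data, edgeR again called 0, with 4.2% below the unadjusted limit. No difference between members and the cells just outside the limit was therefore detectable with this test.

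Promoters are shown for 3 genes, Bmx of the score, and Unc5b and Slc26a10. Unc5b and Slc26a10 were above the other kept cells and large-artery cells in every set. Neither was called in these comparisons, and both were chosen after their values were seen. Each line gives the 250 bases before the annotated start, 5′ to 3′ on the gene's strand, from RefSeq on GRCm38.p6, at chrX:164258194-164258443 (minus strand) for Bmx, chr10:60831582-60831831 (minus strand) for Unc5b and chr10:127180583-127180832 (minus strand) for Slc26a10. Capitals mark a match to any of 4 motifs searched on both strands.
Bmx: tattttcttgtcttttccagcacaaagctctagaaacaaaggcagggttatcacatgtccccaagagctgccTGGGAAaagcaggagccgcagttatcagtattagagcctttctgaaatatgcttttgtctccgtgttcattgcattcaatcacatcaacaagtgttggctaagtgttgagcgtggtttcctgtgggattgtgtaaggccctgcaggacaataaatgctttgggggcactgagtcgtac
Unc5b: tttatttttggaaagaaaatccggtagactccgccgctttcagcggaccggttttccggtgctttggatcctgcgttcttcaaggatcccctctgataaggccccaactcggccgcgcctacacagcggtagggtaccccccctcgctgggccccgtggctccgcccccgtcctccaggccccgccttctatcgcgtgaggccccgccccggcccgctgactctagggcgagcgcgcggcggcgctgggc
Slc26a10: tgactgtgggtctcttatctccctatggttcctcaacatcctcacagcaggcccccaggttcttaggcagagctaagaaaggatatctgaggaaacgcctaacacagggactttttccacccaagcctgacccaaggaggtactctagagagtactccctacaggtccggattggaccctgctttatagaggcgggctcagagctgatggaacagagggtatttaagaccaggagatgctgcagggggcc

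The 4 motifs were TGGGAA, the core bound by the Notch mediator RBPJ, CACGTG, an E-box, GGAAGT, an ETS-type motif, and AACAAT, a SOX-type motif. TGGGAA and GGAAGT can share letters. They were searched in 8 genes, the 5 arteriolar score genes and Unc5b, Slc26a10 and Prdm16, of 9 looked for, and Hey1 was the one not matched. Only Bmx held a match, to TGGGAA. Among all 32851 windows of this length TGGGAA was found in 21.6%, CACGTG in 6.02%, GGAAGT in 19.7% and AACAAT in 9.42%. The match describes letters in a window and is no measured binding site. GC content of the windows was 45.6% for Bmx, 66.8% for Unc5b and 53.2% for Slc26a10.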

How the data were processed

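Single brain endothelial cells of young mice were measured by RNA sequencing, 745 cells in 3 sets. Of these 703 were kept: 120 members, 60 large-artery, 116 next-ranked and 407 remaining cells, the last 3 classes together making the 583 other kept cells. The authors deposited whole-number read counts for 20607 gene symbols (708 with no count in any cell), with no normalization and no molecular identifiers. Bowtie 0.12.2 and the builds mm8 and mm10 are named, with no role, in the submitters' processing notes. Counting tool, annotation and strand setting: not given in the sources used here, so genes with close copies or antisense partners are uncertain. Median depth was 757949 counts per cell in Young1, 713031 in Young2 and 411397 in AY_Y3, and no 2 cells had identical counts.

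The members, gene lists and tests were chosen with earlier results of these data known. CPM was count over cell total. Levels are CPM of counts summed per set and class. edgeR 4.0.16 (R 4.3.3; quasi-likelihood, TMM, set as block, Benjamini-Hochberg adjustment) tested genes that passed its default filter with a count in at least 5% of cells, without the 11 score genes. The comparison with all other kept cells used 6 sums, the others 12 sums in 1 fit. The scripts were tested on simulated counts. No doublet caller was run. Alternatives used DESeq2 1.42.0, limma 3.58.1 and Python 3.11.15, with other scalings, filters, member choices and sets left out.

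Genes to be named were the 12 with the largest fold per direction (6 against large-artery and next-ranked cells) among called genes moved alike in 3 of 3 sets at 50 CPM or more, called list members and 22 fixed genes. Since no gene was called against all other kept cells, others had to be chosen after their values were seen. A first choice, the 12 largest folds per direction below an unadjusted p of 0.05, gave sparsely detected genes and was replaced by the 8 smallest p per direction. Those 8 also had to move alike in 3 of 3 sets and reach a mean of 50 CPM in the higher class. Notch4, Mecom, Sox18, Prdm16, Lrg1, Slc40a1, Slc38a3, Cd9 and Egfl8 were also picked after their values were seen, as was the split by number of score genes. The 8 promoters were searched for 4 motifs, all reported. One gene is not reported here.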

Additional observations from a re-analysis of the deposited data

How the results depend on the processing

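Against all other kept cells, edgeR called 0 genes (0%) as designed. It also called 0 with DESeq2 size factors, no filter, any set left out (0% to 0%) or no set block. The same held with no cells at 100 CPM or more of Acta2, Tagln, Myh11 and Cnn1, and with 60 or 180 members in all or 40 per set. The Vtn limit at 100 CPM and comparison cells without large-artery and next-ranked cells gave 0 as well. DESeq2 called 6.77% of the genes tested, the score of the 5 arteriolar genes alone 0.0973% (9 genes), thinning to 50000 counts 0.0523% (4) and limma 0.189% (16). Of the alternatives chosen after seeing the data, members with 2 or more score genes gave 0 calls and remaining cells 0.0334% (3 genes). Against large-artery cells, 0.701% as designed, DESeq2 called 7.54%, no filter 0.182% (36 genes), 30 large-artery cells 1.34%, 90 such cells 0.291% (26) and the setting without those cells 0.478% (43), and leaving out a set gave 0.101% to 0.111% (9 to 10 genes). Against next-ranked cells, 0% as designed, DESeq2 called 1.01% (91 genes) and leaving out a set 0% to 0%. The cause of these differences was not tested. Of the values of named genes against all other kept cells, 88.1% kept direction and side, 6.86% (53) newly passed the threshold and 5.05% (39) changed sign. Against large-artery cells 63.1% kept both, 36.4% missed the threshold, 0.556% (2) newly passed it and none changed sign. The sign changes, as log2 fold changes, follow. Leaving out a set gave -0.10 to 0.50 for Mfsd2a, -0.00019 to 0.13 for Cldn5, -1.88 to 0.36 for Vcam1, -0.60 to 0.10 for Dll4, -0.32 to 0.58 for Gja4, -0.018 to 0.37 for Nos3, -0.020 to 0.19 for Abcb1a, -0.26 to 0.17 for Abcg2. With 60 members it was -0.81 for Mfsd2a. With 180 members it was -0.056 for Mfsd2a, -0.024 for Cldn5, 0.14 for Nr2f2, 0.037 for Dll4, -0.12 for Abcb1a. With 40 members per set it was -0.083 for Mfsd2a, 0.10 for Dll4. With the score of the 5 arteriolar genes alone it was -1.15 for Mfsd2a, -0.13 for Cldn5, 0.82 for Vcam1, 0.49 for Dll4, -0.61 for Abcb1a. With comparison cells that left out large-artery and next-ranked cells it was -0.040 for Mfsd2a, -0.031 for Cldn5, -0.072 for Abcb1a. With members of 2 or more score genes it was -0.40 for Mfsd2a, -0.0082 for Cldn5, 0.015 for Dll4, -0.51 for Nos3, -0.11 for Abcb1a. Against remaining cells in the fit of 12 sums it was -0.032 for Mfsd2a, -0.027 for Cldn5, -0.068 for Abcb1a. With no filter on low counts it was -0.034 for Cldn5, -0.011 for Cav1, -0.018 for Abcb1a. With cells thinned to 50000 counts it was -0.056 for Cldn5, -0.068 for Abcb1a. With limma on log2(mean CPM + 1) it was -0.11 for Cldn5, -0.086 for Abcb1a. Every fit paired the classes within a set by the set block, except the one with no set block, which changed no count of calls by over 1.5 times. Each comparison rests on 3 sets of unstated nature.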
